A study of Fukomys damarensis with 47 samples.

Results

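Of 33562 genes counted in bone marrow cultures of Damaraland mole-rats, 26 were switched off in some animals and on in others. All libraries of an animal were added and expressed as CPM, the counts of a gene divided by the total and scaled to a common size. The genes were chosen by these levels: a gene was kept if it lay under 0.3 CPM in at least 4 animals, called off here, and at 10 CPM or more in at least 4 animals, called on. The levels per animal are therefore given as a description without a test. At least 1 count was found for 25892 genes, and 11047 genes, all 26 members among them, reached 2 CPM in 25% of the libraries or more and entered the fits. The members carry Ensembl identifiers only: 0 of 26 could be paired with a symbol, so the function of most of them is not given here. The single exception is ENSFDAG00000006589, which the study lists under leukocyte chemotaxis, the directed movement of white blood cells; that list was drawn from these samples and is not independent evidence of its direction.

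The data are 47 RNA-Seq libraries from 16 female Fukomys damarensis, 26 from pooled long bones and 21 from lumbar vertebrae (LV), with 2 to 4 libraries per animal. The animals were 5 queens (breeding females) and 11 nonbreeders, of which 7 were helpers in their natal colony and 4 were solitaires housed alone. Cultures enriched for bone marrow stromal cells received 10 nM estradiol for 24 hr (18 libraries) or vehicle (29 libraries), and all were grown in the same medium with serum and basic fibroblast growth factor, so no group is an uncultured tissue. Per the study's methods, the LV were incubated in collagenase before cells were isolated, and the long bones were not. The animals form 8 pairs, read from the part of their names before the letter F, which was taken as the natal colony. Animals of a pair differed in age by at most 1 day and are called sisters here. The study describes the pairs of G1 and G4 as having different fathers. Animals of colonies DV, LA and WA were 1003 to 1006 days old and those of the other 5 colonies, called the older colonies here (G1, G4, MA, NO and the colony of WEF001 and WEF002), 1075 to 1232 days old.

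Damaraland mole-rats breed cooperatively: a single queen reproduces while her daughters and other females help or disperse, and a female that becomes a queen lengthens her lumbar vertebrae. Bone marrow holds stromal cells, which can form bone, cartilage and fat, beside blood-forming cells and their leukocyte progeny, and some of the latter attach to the dish with the stroma. A gene that is silent in some animals and well expressed in others can be followed through repeated cultures of the same animal, through different bones and through relatives. That shows where its state recurs, and not whether an animal or a family sets it.

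The cultures carried the genes of stroma in every animal. The 10 osteoblast and stroma genes, among them the collagen gene COL1A1, summed to between 1081 and 4122 CPM per animal, and 0 of the 10 fell under 0.3 CPM in any of them. Leukocyte genes were present throughout as well, and their sum ranged from 97.7 CPM in LAF008 to 3180 CPM in NOF009. Libraries held between 5329563 and 16327339 counts. In an animal, 0.3 CPM corresponded to between 4.02 and 16.3 counts, so an off call means no more than that many reads in the animal.

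The 26 genes gave 416 animal values, of which 136 were off, 162 on and 118 between the thresholds. Of the off values, 33 were at 0 counts, spread over 14 genes. Members near the thresholds had the values the rule would lead to: the fourth lowest animal stood at 0.280 CPM for ENSFDAG00000017786 and ENSFDAG00000011774, and the fourth highest at 10.6 CPM for ENSFDAG00000007805 and 10.8 CPM for ENSFDAG00000020570. Just outside, the fourth lowest animal was at 0.313 CPM for ENSFDAG00000009890 and 0.330 CPM for ENSFDAG00000018870, and the fourth highest at 9.73 CPM for ENSFDAG00000010768 and 9.11 CPM for ENSFDAG00000027367.

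The states followed colonies. For 18 of 26 members every off animal came from DV, LA or WA, for 6 more the off animals came from these colonies and from G4, and the other 2 members had patterns of their own. Off states per animal numbered 19 to 25 of 26 in DV, LA and WA, and 0 to 7 in the other 5 colonies. The animals of DV, LA and WA had the deeper data, with between 20599101 and 54440223 counts against between 13391280 and 30603622. Their age, their colonies and whatever else they shared cannot be told apart, since sisters were of like age, and the study treats natal colony as standing also for the date of sacrifice.

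**Figure D1:**
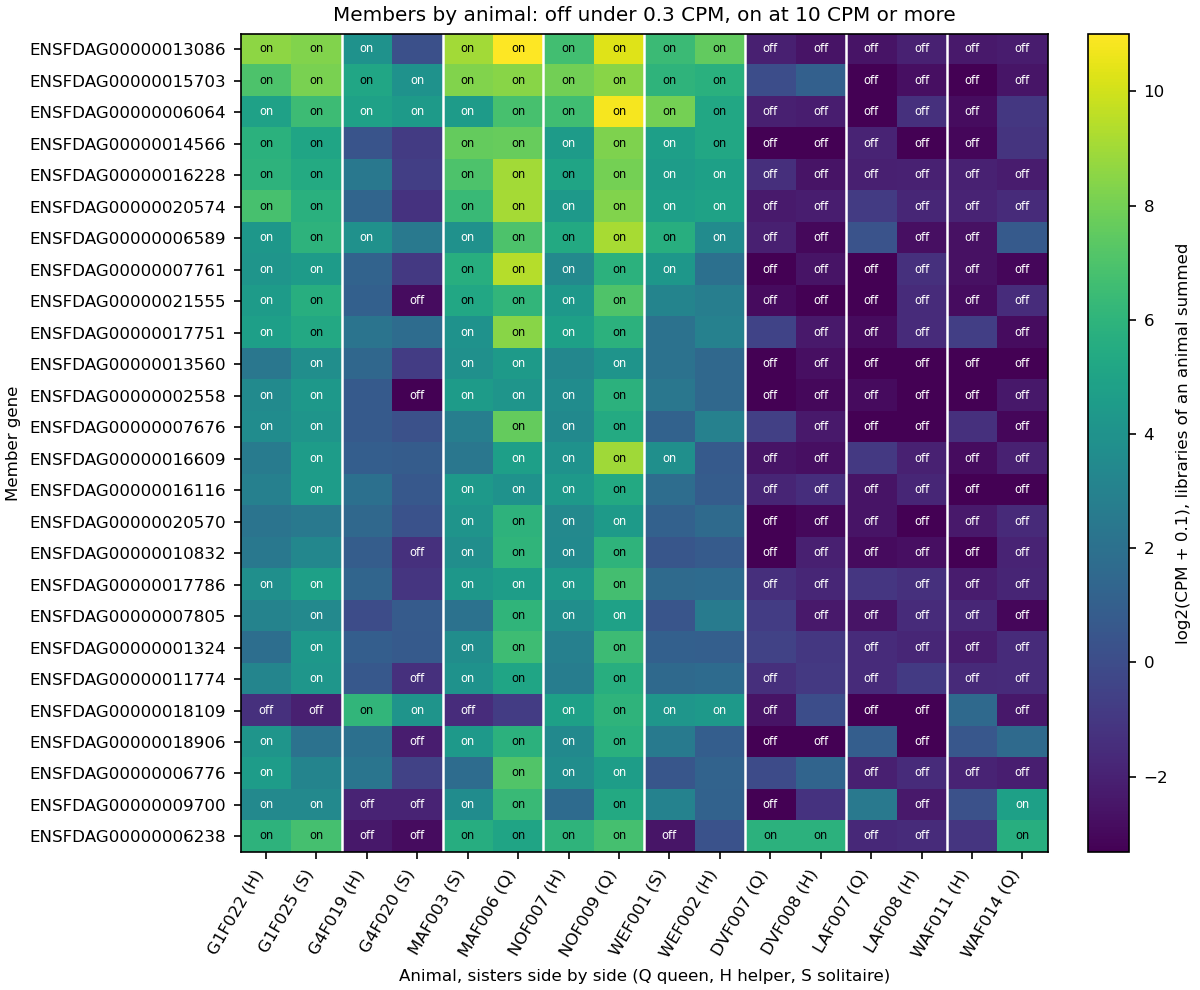
Level of each of the 26 members (rows) in each of the 16 animals (columns), as log2(CPM + 0.1) of the summed libraries, with sisters side by side and white lines between colonies; cells are marked off (under 0.3 CPM) or on (10 CPM or more). The 6 animals at the right, of colonies DV, LA and WA, hold 19 to 25 off states each, and ENSFDAG00000006238, in the bottom row, is on in 3 of them.

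ENSFDAG00000013086 shows the common pattern most plainly. Its level was 378 and 316 CPM in the G1 sisters G1F022 and G1F025, 515 and 2060.2 CPM in MAF003 and MAF006, 99.9 and 1259 CPM in NOF007 and NOF009, and 88.6 and 193 CPM in WEF001 and WEF002. In the G4 sisters it stood at 15.4 CPM (G4F019) and 1.03 CPM (G4F020). The 6 animals of DV, LA and WA lay between 0.0695 and 0.146 CPM, which left 1 animal between the thresholds. No library of an off animal exceeded 0.291 CPM, and the lowest library of an on animal was at 8.44 CPM.

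Exactly these 6 animals were off for 6 members, of which ENSFDAG00000013086 had the highest median over its on animals. ENSFDAG00000016228, of the same set, ranged from 0.0715 to 0.280 CPM in these animals and from 24.1 to 512 CPM in its 8 on animals, with both G4 sisters between the thresholds. Another 3 members had all of these animals off but LAF007, and ENSFDAG00000020574 among them was on in 8 animals at 21.0 to 534 CPM. ENSFDAG00000015703 and 2 further members were off in the LA and WA sisters only, and ENSFDAG00000015703 stood at 0.947 and 1.98 CPM in DVF007 and DVF008 and at 15.6 to 354 CPM in the 10 animals of the other 5 colonies. ENSFDAG00000021555 and 2 others were off in the 6 animals and in G4F020, where ENSFDAG00000021555 was at 0.0413 CPM, against 2.03 CPM in its sister G4F019.

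ENSFDAG00000006064 was on in the same 10 animals, at 22.4 to 1783 CPM, and in the other 6 its levels ran from 0 CPM in LAF007 to 0.404 CPM in WAF014. ENSFDAG00000006589, the chemotaxis gene, was on in 9 animals at 12.0 to 554 CPM and stood at 5.37 CPM in the tenth, G4F020. In the colonies where most members were off its sisters parted: LAF007 had 1.18 CPM and WAF014 1.54 CPM, while LAF008, WAF011, DVF007 and DVF008 had between 0.0238 and 0.140 CPM. The 2 higher animals are queens and 1 of the 4 lower ones, DVF007, is a queen as well.

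The 2 members outside the common pattern crossed the colony sets. ENSFDAG00000006238 was on in both G1 sisters (62.4 and 108 CPM), both MA sisters (49.2 and 33.1 CPM), both NO sisters (64.6 and 109 CPM), both DV sisters (59.8 and 58.8 CPM) and in WAF014 (50.0 CPM). It was off in both G4 sisters (0.0864 and 0.0413 CPM), both LA sisters (0.208 and 0.243 CPM) and WEF001 (0.0789 CPM). WEF002 had 1.14 CPM and WAF011, the sister of WAF014, 0.357 CPM. Its states were the best separated of all members by library: the lowest of 26 libraries of on animals was at 23.1 CPM and the highest of 14 libraries of off animals at 0.326 CPM.

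ENSFDAG00000018109 was on in both G4 sisters (69.7 and 17.2 CPM), both NO sisters (28.0 and 64.1 CPM) and in WEF001 and WEF002 (18.5 and 21.2 CPM). It was off in both G1 sisters (0.299 and 0.141 CPM), both LA sisters, where it had 0 counts, in MAF003 (0.251 CPM), in DVF007 (0.0701 CPM) and in WAF014 (0.0918 CPM). MAF006 had 0.492 CPM, DVF008 0.953 CPM and WAF011 2.91 CPM. It is the only member that was not on in MAF006. One more gene, ENSFDAG00000009700, chosen here after its values were seen for its exception within WA, stood at 28.0 CPM in WAF014 and 1.07 CPM in WAF011, and was off in both G4 sisters (0.173 and 0.165 CPM). ENSFDAG00000006238 and ENSFDAG00000009700 were the only 2 members on in any animal of DV, LA or WA.

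The queens MAF006 and NOF009 had the highest levels. One of them was the highest animal for 25 of 26 members, and for 20 members they were the highest pair. Summed over the members, they reached 5963 and 6378 CPM, against 77.6 to 1615 CPM in the other 8 animals of their 5 colonies and 3.79 to 85.7 CPM in DV, LA and WA. These totals hold unlike mixes of libraries. NOF009 has long bone libraries only, and the total of MAF006 includes an estradiol long bone library at 11189 CPM. In vehicle long bone libraries alone the members summed to 3001 CPM in MAF006 and 6127 CPM in NOF009. The next highest was G1F025 at 2239 CPM. By animal totals, MAF006 and NOF009 also had the highest leukocyte sums, 2735 and 3180 CPM. The genes of the leukocyte list include LAPTM5, a lysosomal membrane protein of blood cells, and CORO1A, an actin-binding protein of leukocytes, and none of its 18 genes is a member.

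In the other 14 animals the leukocyte sum and the member sum were ordered alike in part. LAF008 and WAF011 were the 2 lowest for both, and G1F022, G1F025 and NOF007 had the 3 highest leukocyte sums and were among the 4 highest for the members. The median leukocyte sum was 207 CPM in DV, LA and WA and 580 CPM in the other colonies, or 454 CPM there without MAF006 and NOF009. Exceptions to this order, picked after the values were seen, were MAF003 and WEF002, which had 265 and 271 CPM of leukocyte genes with 21 and 8 members on, and WAF014 and DVF008, which had 488 and 347 CPM with 2 and 1 members on. The leukocyte sum lay between 97.7 and 488 CPM in DV, LA and WA and between 265 and 3180 CPM in the other colonies, so the ranges overlapped. The member sums met only at their ends, where G4F020 (77.6 CPM) was under WAF014 (85.7 CPM). Of the 18 leukocyte genes, up to 5 were under 0.3 CPM in an animal of DV, LA or WA and 0 in any other animal. Their part in the states of the members was not tested, and in pooled RNA fewer cells of a type and less RNA per cell cannot be told apart.

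**Figure D2:**
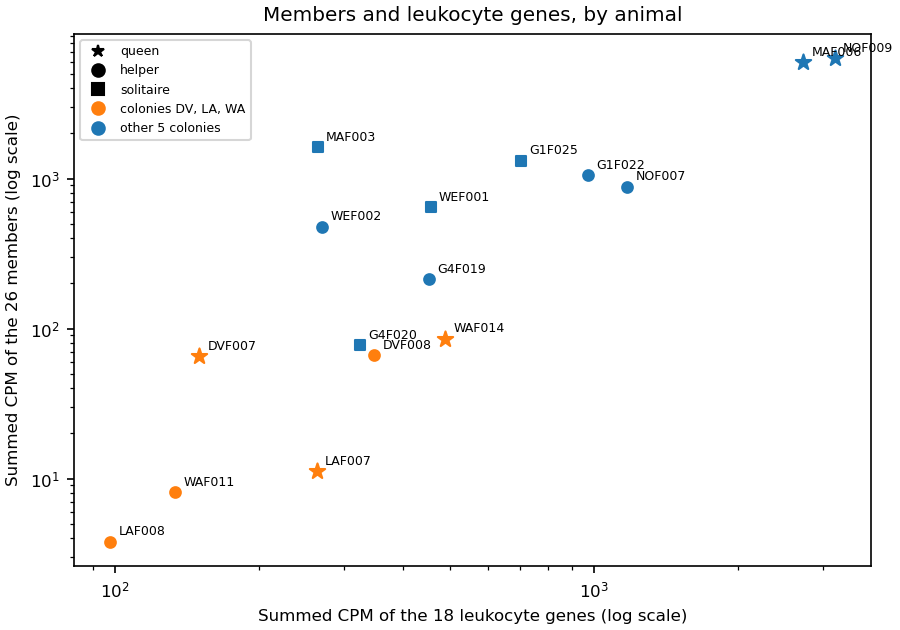
Summed CPM of the 26 members against summed CPM of 18 leukocyte genes, 1 point per animal, both on log scales; star, circle and square mark queens, helpers and solitaires. The queens MAF006 and NOF009 lie at the upper right and LAF008 and WAF011 at the lower left, with animals of high leukocyte sums mostly high in the members; MAF003 (265 CPM of leukocyte genes, 1615 CPM of the members) lies farthest above the others at its leukocyte level.

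The state of an animal recurred in its cultures. Of 439 libraries of off animals, 390 were under 0.3 CPM, 217 had 0 counts and 0 reached 10 CPM, the highest being at 0.743 CPM. Of 426 libraries of on animals, 357 were at 10 CPM or more and 1 was under 0.3 CPM. For 25 of 26 members the lowest library of an on animal lay above the highest library of an off animal. The exception was ENSFDAG00000017786, with 0.547 CPM in an on animal and 0.678 CPM in an off animal. Each library is part of the animal total that the rule used, so some of this follows from the choice.

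Between bone types, 18 pairs of a long bone and an LV library of the same animal and treatment gave 468 values of the members. Both libraries were off for 161, both on for 97, and 209 had at least 1 library between the thresholds. The 1 opposite case was ENSFDAG00000021555 in vehicle cultures of WEF002, at 14.3 CPM in the long bones but 0 CPM in the LV. Between treatments, 17 pairs gave 442 values, of which 137 were off in both cultures, 107 on in both and 197 between in at least 1. Here too there was 1 opposite case, ENSFDAG00000002558 in the LV of NOF007, with 0.274 CPM under vehicle and 18.6 CPM under estradiol.

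Choosing genes on the long bones alone left the LV unused by the choice. The same rule then took 36 genes, of which 23 are members (63.9% of the 36 and 88.5% of the 26). In the 14 animals with both bone types, 191 values of these 36 genes were off in the long bones. Of these, 162 were off in the LV (84.8%), 29 between and 0 on. Of 159 values on in the long bones, 99 were on in the LV (62.3%), 59 between and 1 off. The median LV level was 0.0980 CPM where the long bones were off and 14.8 CPM where they were on.

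Sisters did not take opposite states for any member. Over 8 pairs and 26 members, 55 of 208 values were off in both sisters, 70 on in both, 0 opposite, and 83 had a sister between the thresholds. Among 112 pairs of animals of different colonies, 842 of 2912 values were opposite (28.9%). Of these, 763 set an animal of DV, LA or WA against one of another colony. Within the 5 older colonies, sisters were opposite in 0 of 130 values and animals of different colonies in 71 of 1040 (6.83%). Within DV, LA and WA the counts were 0 of 78 and 8 of 312 (2.56%). A single split at 1 CPM, with no values left between, put sisters in the same state for 89.4% of values and animals of different colonies for 47.1%.

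Levels were nearer between sisters as well, though not equal. On the log2(CPM + 0.1) scale the median distance over the members was 1.06 between sisters, or 2.08-fold, and 3.84 between animals of different colonies. Over all 11047 genes these distances were 0.27 and 0.40. Within the 5 colonies where the members were mostly on, sisters differed by 1.30 and animals of different colonies by 2.47, and within DV, LA and WA, where values were near 0, by 0.74 and 0.72. By pair, the median distance ran from 0.48 in DV to 2.40 in NO, where all 26 members were higher in the queen NOF009 than in NOF007. It was 1.99 in MA, where 23 were higher in the queen MAF006, and 1.75 in G4, where 25 were higher in the helper G4F019 than in the solitaire G4F020. Between WEF001 and WEF002, a solitaire and a helper, it was 0.80, with 12 members higher in WEF001 and 14 in WEF002. Totals of a pair can hold unlike libraries. NOF009 has no LV library, while NOF007 has libraries of both bones. MAF006 has estradiol libraries in her total, and MAF003 has vehicle libraries only. In the vehicle long bone libraries of the MA pair the members went both ways. ENSFDAG00000006776 was at 226 CPM in MAF006 and 3.89 CPM in MAF003, and ENSFDAG00000002558 at 1.89 and 21.7 CPM. Animals of a pair may share their day of sacrifice and culture as well as their parents, and these cannot be told apart.

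**Figure D3:**
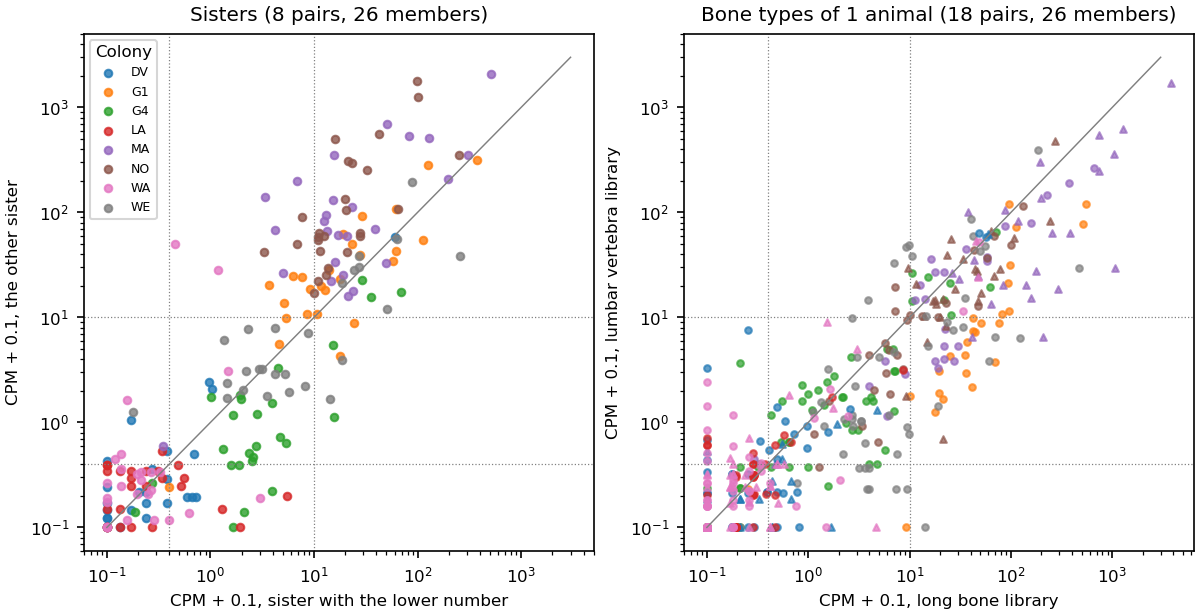
Left, CPM + 0.1 of each member in one sister against the other, coloured by colony (8 pairs); right, CPM + 0.1 in the LV library against the long bone library of the same animal and treatment (18 pairs, circles vehicle, triangles estradiol), on log axes with dotted lines at the off and on thresholds. The upper left and lower right fields, which would hold opposite states, have 0 points on the left and 1 on the right, ENSFDAG00000021555 in WEF002.

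Breeding status did not divide on from off. All 26 members had at least 1 queen on and at least 1 queen off, and likewise for nonbreeders, and the ranges of queens and nonbreeders overlapped for every member. The fit of queens against nonbreeders in the long bones, with colony as a block, therefore compares levels mainly within the 5 sister pairs that hold a queen. In this fit 24 of 26 members had a positive log2 fold change, with a median of 1.81 against 0.02 over all genes. At an FDR of 10%, 0 of 26 were called by edgeR's quasi-likelihood test, as were 0% of all genes tested. DESeq2's Wald test called 7 members and 3.54% of all genes, and edgeR fitted to all genes with a count called 19 members and 4.15% of all genes. At an unadjusted p under 0.05, 12 of 26 were higher in queens and 0 lower, where 6.21% of all genes were higher and 2.48% lower. The rule used animal totals over both bone types, and 25 of 26 members were on in both queens MAF006 and NOF009. Some of the excess in queens, here and in the LV, can therefore follow from the choice of genes.

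ENSFDAG00000006589 had the smallest p of the members. In the long bones it stood at 168.5 CPM in MAF006 and 12.7 CPM in the sister MAF003, at 554 against 55.1 CPM in the NO pair, at 0.291 against 0.0464 CPM in DV, at 0.967 against 0.0928 CPM in LA and at 2.01 against 0 CPM in WA. The queen was thus higher in 5 of 5 pairs, in those where the gene was on and in those where it was near 0. The log2 fold change was 3.64 (SE 0.67), with an edgeR adjusted p of 0.105, and that p ranged from 6.99e-29 to 1.00 over the alternatives. ENSFDAG00000017751 followed with 3.16 (SE 0.64, edgeR adjusted p = 0.122). Its queen was higher in 5 of 5 pairs, with 536 against 22 CPM in MA and 59.2 against 16.3 CPM in NO, whereas both sisters were under 1 CPM in DV, LA and WA. The MA value rests on the estradiol library of MAF006 (1067 CPM): her vehicle library stood at 90.5 CPM, and MAF003 has a vehicle library only. In vehicle libraries alone the queen was higher in 3 of 5 pairs, both sisters were at 0 in the other 2, and the log2 fold change was 2.37 (SE 0.66, edgeR adjusted p = 0.259). For ENSFDAG00000006589 the vehicle library of MAF006 was at 95.8 CPM, the queen was higher in 5 of 5 pairs and the log2 fold change was 3.46 (SE 0.61, edgeR adjusted p = 0.0580).

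On the other side, ENSFDAG00000018109 had a log2 fold change of -1.17 (SE 0.95) and ENSFDAG00000016116 of -0.15 (SE 0.85), with edgeR adjusted p of 0.750 and 0.967. Without the queens MAF006 and NOF009, an alternative added after the data were seen, 3 members were higher and 1 lower at an unadjusted p under 0.05, against 2.15% and 0.543% of all genes, and the median was 1.11. Leaving out NOF007 or NOF009 alone gave 6 members higher at that threshold (3.96% and 3.94% of all genes), and the fit without the colony block gave 5 (7.25% of all genes). The leukocyte list moved the same way: 17 of its 18 genes were positive with a median of 1.52, 11 of them at an unadjusted p under 0.05 and 0 at an FDR of 10%. All 10 osteoblast and stroma genes were negative, with a median of -0.50 and 0 at an unadjusted p under 0.05. The leukocyte sum was higher in the queen than in her sister in MA (2735 against 265 CPM), NO (3180 against 1171 CPM), LA (263 against 97.7 CPM) and WA (488 against 133 CPM) and lower in DV (150 against 347 CPM). The part of both lists in the members' difference was not tested.

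The LV gave smaller differences, but the queen NOF009 has no LV library, so the NO sisters are not compared here. In the long bones, the fit without NOF009 gave 6 members higher at an unadjusted p under 0.05 (3.94% of all genes). With 4 queens and 10 nonbreeders, 24 of 26 members were positive, the median was 1.01 and 0 members passed an FDR of 10% by edgeR (0% of all genes). DESeq2's Wald test called 1 member and 0.95% of all genes, and edgeR fitted to all genes with a count called 12 members and 1.58% of all genes. At an unadjusted p under 0.05, 5 were higher and 1 lower, against 2.63% and 0.797% of all genes. ENSFDAG00000009700 had a log2 fold change of 3.10 (SE 0.83, edgeR adjusted p = 0.761), with 105 against 14.6 CPM in MA, 17.2 against 1.38 CPM in WA, 3.06 against 0 CPM in LA and 0 against 0.147 CPM in DV. The MA pair sets an estradiol library of MAF006 against a vehicle library of MAF003, and with vehicle libraries only, which leaves this queen out, the log2 fold change was 3.70 (SE 1.18, edgeR adjusted p = 1.0). ENSFDAG00000001324 had 1.51 (SE 0.44, edgeR adjusted p = 0.804) and was higher in the queen in 4 of 4 pairs, of which DV, LA and WA were near 0. There it stood at 0.440 against 0.196 CPM in DV and 0.270 against 0.115 CPM in WA. In LA it was at 0.219 against 0.204 CPM, from 2 counts in each sister. The MA pair, at 18.5 against 3.70 CPM, again sets an estradiol library of MAF006 against a vehicle library of MAF003. ENSFDAG00000018109 was lower, at -3.64 (SE 1.04, edgeR adjusted p = 0.827), with levels under 0.4 CPM in all 4 queens and 3.55 and 0.784 CPM in the sisters of WA and DV, and ENSFDAG00000015703 followed at -0.27 (SE 0.92). With vehicle libraries only, and so without MAF006, the median of the members turned to -0.14, and without MAF003 or without MAF006 it was 0.15. Of the 18 leukocyte genes, 16 were positive in the LV with a median of 1.30.

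**Figure D4:**
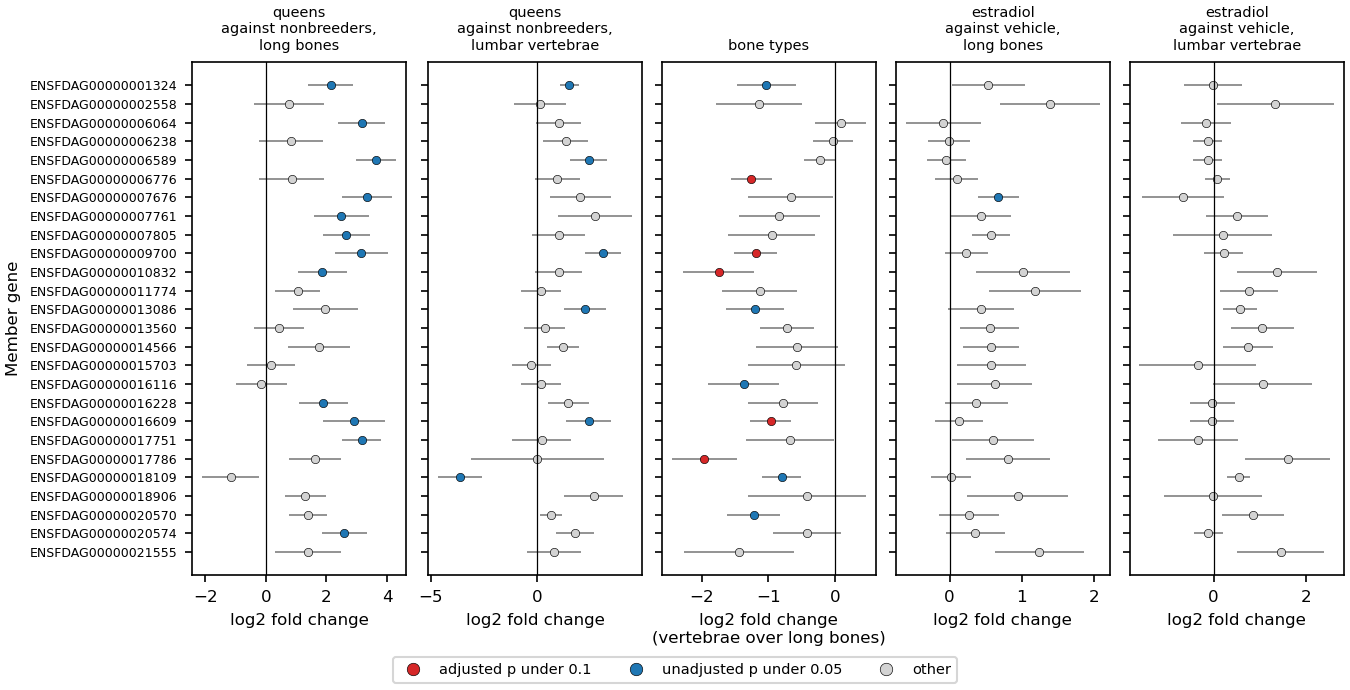
Log2 fold change of each member (point) with its standard error (bar) in the 5 fitted comparisons; red marks an edgeR adjusted p under 0.1, blue an unadjusted p under 0.05. In the queens' long bones 24 of 26 points lie right of 0, in the comparison of bone types 25 of 26 lie left of 0, and the 5 red points are all in that comparison.

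In the main fits, before any alternative, bone type was the only one of the 5 comparisons in which edgeR called members at an FDR of 10%. These fits covered the 11047 genes and held a block. For queens in the long bones, vehicle libraries only gave 2 called members (0.688% of all genes). Leaving out DVF007 or DVF008 there gave 3 (2.45%). In the vehicle cultures of 13 animals with both bones, 25 of 26 members had a negative log2 fold change of LV over long bones, with a median of -0.90 against -0.04 over all genes. Only the LV were treated with collagenase, so bone type and the way cells were isolated cannot be told apart. At an FDR of 10%, 5 members were lower in the LV and 0 higher by edgeR's quasi-likelihood test with animal as a block, that is 19.2%. Of all genes 6.83% were called, 4.05% lower and 2.79% higher. DESeq2's Wald test called 5 members and 9.69% of all genes. The members' summed level, which the most abundant of them dominate, was higher in the long bones in 7 of 13 animals, with medians of 90.4 and 87.4 CPM in long bones and LV. The 5 were ENSFDAG00000006776, ENSFDAG00000017786, ENSFDAG00000009700, ENSFDAG00000010832 and ENSFDAG00000016609. At an unadjusted p under 0.05, 10 members were lower, where 9.48% of all genes were.

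ENSFDAG00000006776 was lower in the LV in 11 of 13 animals. Its lowest, median and highest levels in the long bones were 0, 1.45 and 17.8 CPM, those of the LV 0.0612, 0.822 and 10.1 CPM, and the log2 fold change was -1.26 (SE 0.31, edgeR adjusted p = 0.0235). ENSFDAG00000017786 was lower in 9 of 13 animals, with 0.0782, 0.678 and 50.9 CPM against 0, 0.272 and 8.70 CPM and a log2 fold change of -1.96 (SE 0.49, edgeR adjusted p = 0.0287). The ranges of the bone types overlapped for both. ENSFDAG00000006064 was the only member with a positive value, 0.08 (SE 0.38).

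The call on bone types depended on single animals. Leaving out G1F025 gave 1 called member (5.47% of all genes). Leaving out any of LAF007, LAF008, MAF003, NOF007, WEF001 and WEF002 gave 3 (5.18% to 6.55%), leaving out WAF011 gave 7 (12.5%), and the fit without the animal block gave 0 (2.27%). Among the animals of the 5 older colonies only, an alternative chosen after the data were seen, 7 were called (5.11%). The leukocyte list was lower in the LV as well, with 17 of 18 genes negative, a median of -0.60 and 4 called, and its sum was higher in the long bones in 11 of 13 animals, with medians of 389 and 167 CPM. Its part in the members' difference was not tested.

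Estradiol gave no call among the members. In the long bones of 10 animals 0 members passed an FDR of 10% by edgeR's quasi-likelihood test (0% of all genes), and 1 had an unadjusted p under 0.05, where 1.17% of all genes did. DESeq2's Wald test called 0 members and 0.0453% of all genes. That gene, ENSFDAG00000007676, had a log2 fold change of 0.67 (SE 0.29, edgeR adjusted p = 1.0) and was higher under estradiol in 7 of 10 animals. ENSFDAG00000007805 had 0.57 (SE 0.26), ENSFDAG00000006064 -0.09 (SE 0.53) and ENSFDAG00000006589 -0.04 (SE 0.28). The median of the members was 0.55. Without WEF002 10 members were higher under estradiol at an unadjusted p under 0.05, where 2.25% of all genes were higher and 2.34% lower. Leaving out any other single animal gave 0 to 4 members higher at that threshold, where 0.498% to 1.39% of all genes were higher.

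In the LV of 7 animals 0 members were called by edgeR (0% of all genes). An unadjusted p under 0.05 was found for 0 members and 0.498% of all genes. DESeq2's Wald test called 0 members and 0.0543% of all genes. The smallest p belonged to ENSFDAG00000018109, with a log2 fold change of 0.54 (SE 0.25) and a higher level under estradiol in 7 of 7 animals, from a median of 1.98 to 4.91 CPM. ENSFDAG00000017786 had 1.59 (SE 0.91), ENSFDAG00000007676 -0.66 (SE 0.88) and ENSFDAG00000006589 -0.13 (SE 0.31). Over all 7 animals 15 members were positive and 11 negative, with a median of 0.20.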

How the data were processed

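RNA-Seq counts of 47 cultures from 16 female Damaraland mole-rats were used, with groups taken from the sample labels and colony from the animals' names. The authors deposited raw counts per gene: per the labels and the study's methods, reads were trimmed with cutadapt 2.3, mapped with STAR to DMR_v1.0, and uniquely mapped reads were counted with HTSeq on Ensembl genes. The strand setting is not given in the sources used here, so overlapping, antisense and near-identical genes are uncertain.

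Counts were added per animal and divided by the total for CPM. The members, thresholds, gene lists and tests were chosen with earlier results of these data known. For breeding status, counts were added per animal within a bone type, with colony as a block. Bone type (vehicle libraries) and estradiol were compared within animals, with animal as a block. Colony pairs the samples because its animals are taken as sisters, and the other pairs are cultures of the same animal. Two-sided edgeR 4.0.16 quasi-likelihood tests (TMM, Benjamini-Hochberg adjustment, FDR of 10%) in R 4.3.3 were fitted to 11047 genes that reached 2 CPM in 25% of libraries or more, and tested on simulated data. DESeq2 1.42.0 was an alternative. Python 3.11.15 and matplotlib 3.10.9 were used for the counts of states and the plots.

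Named genes were the 8 members with the fewest animals between the thresholds, those nearest a threshold, the highest of each set of at least 3 with the same off animals, and per comparison the 2 with the smallest p in each direction. Further alternatives were other thresholds and scalings, other filters, no block, vehicle libraries only and leaving out each animal.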

Additional observations from a re-analysis of the deposited data

Results flagged for a closer look

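Of 78 groups of animals examined on the log2(CPM + 0.1) scale (26 members in queens, helpers and solitaires), 3 held a sample whose gap to the next was large for the range of its group. The members were chosen by these same levels for animals that lie far apart, so no chance rate can be set beside this count. ENSFDAG00000006238 in LAF007, the lowest of 5 queens, stood at 0.208 CPM, against 33.1 to 109 CPM in the other 4. ENSFDAG00000009700 in G4F020, the lowest of 4 solitaires, stood at 0.165 CPM. ENSFDAG00000018109 in NOF009, the highest of 5 queens, stood at 64.1 CPM. In each case the sister of the animal stood on the same side: LAF008 had 0.243 CPM, G4F019 0.173 CPM and NOF007 28.0 CPM.

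Of 78 pairings of a member with a comparison of bone type or estradiol, 1 moved in opposite directions by breeding status in every animal. ENSFDAG00000017786 in the LV changed under estradiol by a median of -0.144 CPM in 2 queens and by 0.210 CPM in 5 nonbreeders. The difference was not tested, and both medians are under the level at which a gene was called off. Among the nonbreeders, NOF007 rose from 0.547 to 36.3 CPM and WEF001 from 1.48 to 5.51 CPM. The 2 queens fell from 1 to 0 counts (DVF007) and from 4 to 1 counts (WAF014).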

How the results depend on the processing

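The number of members was set mostly by the upper threshold and by the animals required. It was 53 with on at 5 CPM or more, 14 with on at 20 CPM or more, 52 with at least 3 animals on each side and 13 with at least 5. Leaving out each animal in turn gave 18 to 26 members. All of these were among the 26, which had to be so: a gene that passes without an animal also passes with it. With a single split at 1 or 3 CPM the share of values in the same state was 88.7% and 88.5% between bone types, 93.0% and 92.1% between treatments and 89.4% and 90.9% between sisters. Between animals of different colonies it was 47.1% at 1 CPM, and by the thresholds of the rule 84.4% within the 5 older colonies and 96.1% within DV, LA and WA, where bone types and treatments were both at 100%. Leaving out 1 animal gave 99.5% to 100% between bone types (99.5495 without WAF011, 100 without WEF002) and 99.5% to 100% between treatments.

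For queens against nonbreeders, 19 members were called in the long bones with all genes with a count (4.15% of all genes tested), 1 with filterByExpr (0.332%), 7 with DESeq2 (3.54%), 2 with vehicle libraries only (0.688%) and 0 to 3 when leaving out each animal (0% to 2.45%; 3 without DVF007 or DVF008). In the LV all genes with a count gave 12 (1.58%) and DESeq2 gave 1 (0.95%). Between bone types 3 were called with DESeq2 size factors (6.82%), 9 with all genes with a count (4.21%), 3 of the 10 members tested with filterByExpr (6.6%), 8 with all libraries summed (19.7%), 1 to 7 when leaving out each animal (5.10% to 12.5%) and 0 (2.27%) without the block of paired libraries. The cause of these shifts was not tested.

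The median of the members turned to -0.14 for queens in the LV with vehicle libraries only, and to -0.14 for estradiol in the LV with filterByExpr, which kept 8 members. Named genes far from the threshold turned as well. ENSFDAG00000016116 (queens, long bones) was at 0.26 without the colony block and at -1.20 to 0.41 when leaving out animals, and ENSFDAG00000015703 (queens, LV) at -1.09 to 0.28. ENSFDAG00000006064 lay between -0.10 and 0.27 for bone types and between -0.54 and 0.13 for estradiol in the long bones, where the 5 older colonies gave 0.0303. ENSFDAG00000006589 under estradiol lay between -0.26 and 0.12 in the long bones, with 0.17 without the block and 0.20 in the 5 older colonies, and between -0.34 and 0.10 in the LV. ENSFDAG00000007676 under estradiol in the LV was at 1.19 without the block and 1.01 in the 5 older colonies. All alternatives that take only some colonies or leave out MAF006 and NOF009 together were chosen after the data were seen.

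The off state is limited by depth, since 0.3 CPM is between 4.02 and 16.3 counts per animal. It is not known from these data whether the p-values, over 16 animals in 8 pairs, measure more than the spread between these cultures. Gene length, symbol and genome position of the members were not used here, and a gene that shares reads with a near-identical copy could differ between animals by where its reads were placed, which was not tested.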
